A study of Mus musculus with 24 samples.

Results

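The comparison set quadriceps of C57BL/6 (B6) mice that had received a volumetric muscle loss (VML) injury filled with extracellular matrix (ECM) against quadriceps of uninjured B6 mice, to find which genes differed between a muscle healing around this material and an intact muscle. Its members were the 3 ECM-treated and the 3 uninjured B6 libraries, 6 of the 24 bulk RNA libraries in the series, and all 14159 genes that carried a symbol. The series holds 8 groups of 3 libraries: quadriceps of B6 mice and of MRL/MpJ (MRL) mice, a strain known for closing ear punches, each left uninjured or injured and treated with saline, ECM or polyethylene particles. Mice were female and 6 to 8 weeks old at surgery. A piece of the quadriceps belly was cut out, the gap was filled with a suspension of powdered, decellularized small-intestinal submucosa from pigs, and the muscle was collected 21 days after injury. The uninjured muscles had neither injury nor material, so ECM and injury cannot be told apart in this comparison by itself, and values of the B6 saline libraries, which carry the injury without the material, are given beside groups of genes and in a direct comparison. Whole quadriceps were frozen and sequenced, with the implant site and the surrounding intact muscle together. The labels name the libraries as separate samples and do not say more about the animals, so p-values measure the spread between these libraries.

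Muscle that loses a large block of tissue calls in monocytes, which become macrophages that clear debris and foreign material and send signals to muscle stem cells and fibroblasts. Under interleukin-4 and interleukin-13, which signal through STAT6, mouse macrophages take up a program called alternative activation and make arginase 1 (Arg1), the chitinase-like protein Chil3 and the secreted protein Retnla. New muscle fibres make embryonic and neonatal myosins and spread acetylcholine receptors along their surface before they are innervated, and fibroblasts lay down collagen around them.

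Expression is given as CPM, the read count of a gene scaled to library size, recovered from the deposited log2 CPM, with the libraries of a group always in the order of replicates 1, 2 and 3. Log2 fold changes are ECM-treated minus uninjured, with the standard error (SE) and the Benjamini-Hochberg adjusted p of limma, a linear model with variances moderated across genes, fitted to all 24 libraries. Genes with an adjusted p under 0.05 are said to have risen, fallen or changed. Libraries of the same B6 group correlated at 0.949 to 0.973 (Pearson's r over genes), against 0.893 to 0.940 between ECM-treated and uninjured libraries. All 6 libraries showed muscle, with the fast myosin Myh4 at 55036, 51284 and 35720 CPM in the ECM-treated and 52280, 69391 and 78583 CPM in the uninjured muscles. Among the ECM-treated muscles, replicate 2 had the lowest summed level of macrophage markers, and uninjured replicate 2 stood apart in fat and nerve genes. The 3 ECM-treated B6 libraries share one first sequencing index and the 3 uninjured B6 libraries another, so among these 6 libraries index and treatment cannot be told apart. The B6 saline group holds both, with replicates 1 and 2 on the index of the ECM-treated and replicate 3 on that of the uninjured libraries.

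The ECM-treated muscle differed from uninjured muscle in 60 of 14159 genes (0.424% of all tested), of which 28 rose (0.198%) and 32 fell (0.226%). The genes that rose furthest included Chil3 and Arg1, products of alternatively activated macrophages, the ribonuclease Rnase2a and the chemokine Ccl8. Those that fell furthest were genes of red blood cells, and the mast cell proteases Cpa3 and Mcpt4 fell too. In all 60 genes the ECM-treated and uninjured libraries did not overlap, as was so for 32.3% of all genes. The 60 were picked by a test on these same libraries, so their separation adds no support to the calls. The number of genes called depended on which other libraries helped to estimate the spread. Fitted to the 6 libraries alone, limma called 893 genes (6.31%), 581 higher (4.1%) and 312 lower (2.2%), with 56 of the 60 among them. In a fit without saline-treated B6 replicate 2 and polyethylene-treated MRL replicate 2, left out after the data were seen, 871 genes were called (6.15%), 601 higher (4.24%) and 270 lower (1.91%), with all 60 among them. The mean Pearson correlation with the own group was 0.819 for that MRL library, the lowest of its group, and 0.927 for that saline library, against a lower value for saline replicate 3, which was kept. Results that only the fit of 6 libraries called are named as such. With the first index as a term in the fit of 24 libraries, 45 of the 60 were called, among them Chil3 (8.91, adjusted p = 0.00375), Arg1 (7.53, 0.00647), Rnase2a (7.77, 0.000667), Ccl8 (6.23, 0.0264) and Hbb-bs (-5.71, 0.00716). The other 15 lost the call, among them Ccl7 (adjusted p = 0.121), Cd72 (0.0659), Ear2 (0.138), Tek (0.0745), Jam2 (0.183), Tnxb (0.236), Abca8b (0.0843) and Vcp-rs (0.117). The fit can estimate the difference between these indices only from the B6 saline group, as replicates 1 and 2 against replicate 3. Calls kept or lost with this term therefore do not separate index from treatment. With 1 library left out of the 24, 11, 15 and 12 genes were called without ECM-treated replicates 1, 2 and 3, and 10, 20 and 9 without the uninjured ones. Of the 60, 8 were called each time: Chil3, Rnase2a, Arg1, Ccl8, Ch25h, Gm13248, Vcp-rs and Abca6. In none of the 6 fits were 33 of the 60 called, among them Hbb-bs, Hba-a1, Hba-a2, Cpa3, Tek, Jam2, Gpc3, Tnxb, Cd72, Ms4a7, Itgad, Mup7, Fmo2, Snrnp70 and Wnk1.

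**Figure D1:**
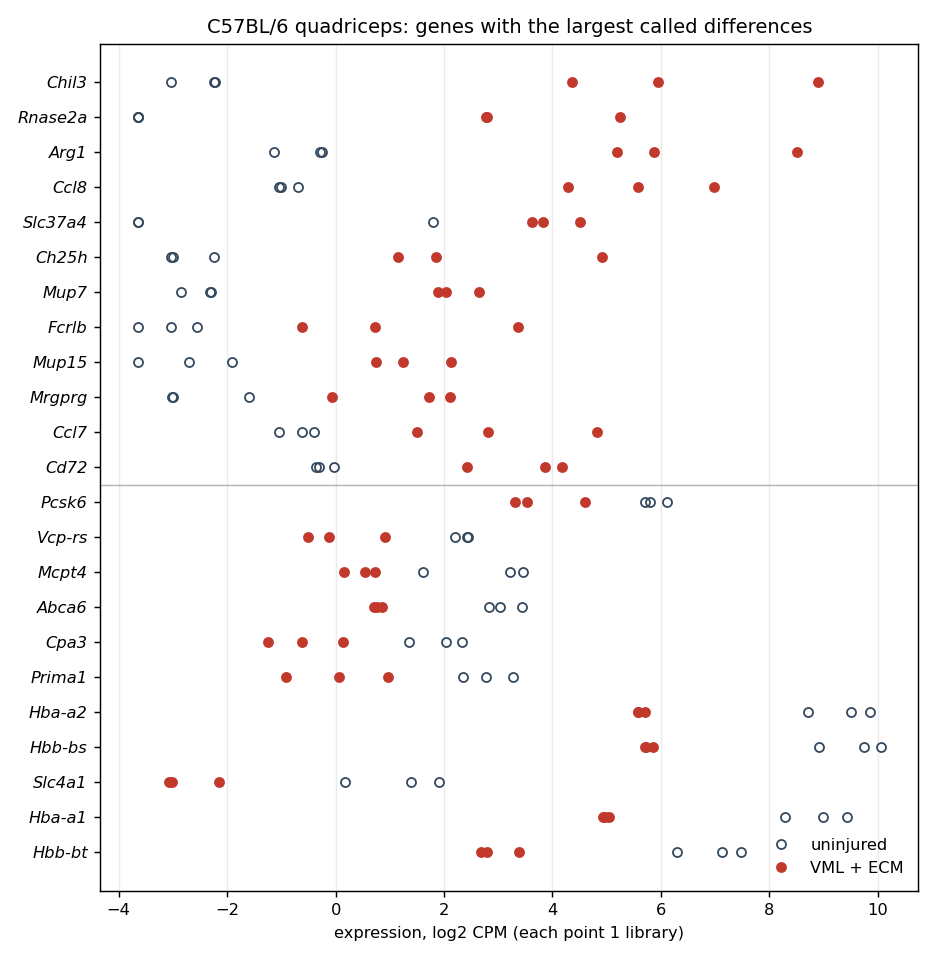
Expression (log2 CPM, horizontal axis) of 12 genes that rose and 11 that fell, the furthest among the named genes that are reported here, 1 point per library; filled points are ECM-treated and open points uninjured B6 muscles. In every gene the 2 groups are apart, which was a condition for showing it, with Chil3 (log2 fold change 8.91) at the top and Hbb-bt (-4.01) at the bottom.

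The largest change of the comparison was that of Chil3, an alternative activation gene. Chil3 (GRCm39 chr3:106054870-106074880, minus strand), a chitinase-like protein secreted by macrophages under interleukin-4, was at 479, 20.5 and 61.4 CPM after ECM and at 0.131, 0.0419 and 0.134 CPM without injury. The lowest ECM-treated library lay far above all uninjured ones, but the ECM-treated libraries were widely spread. On the log2 scale Chil3 rose by 8.91 ± 0.91 (SE), with an adjusted p of 4.9e-05. Because the uninjured level is near 3 counts (0.119 CPM), this fitted value depends on the prior count in the deposited values, and on the log2(CPM + 1) scale the rise was 6.29. Transcripts of the predicted gene Gm6522 are 95.3% identical to Chil3 where they align, and reads may be shared between them.

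Arg1 (chr10:24791118-24803817, minus strand), the enzyme that takes arginine away from nitric oxide synthesis and towards ornithine, was at 365, 36.4 and 58.8 CPM after ECM against 0.736, 0.756 and 0.377 CPM. Again replicate 1 was highest and no library overlapped. Arg1 rose by 7.09 ± 0.83 with an adjusted p of 0.000302, and its exons overlap an antisense RNA, Gm36172. Retnla, the third of the classic products, was at 362, 18.1 and 71.2 CPM after ECM and at 0.058, 3.37 and 0 CPM without injury. The same order of ECM-treated libraries was seen, and the groups did not overlap, but with uninjured replicate 2 at 3.37 CPM its log2 difference of 7.86 ± 2.52 gave an adjusted p of 0.149 (0.0417 in the fit of 6 libraries). Mrc1 and Mgl2, lectin receptors of the same program, were at 272, 42.1 and 93.9 CPM and at 101, 12.4 and 24.6 CPM after ECM, against 19.1 to 34.2 CPM and 6.86 to 7.41 CPM without injury, with adjusted p-values of 0.139 and 0.0901. Of the 19 alternative activation genes measured, 2 rose (0.198% of all genes) and 0 fell. The fit of 6 libraries called 6 higher (4.1% of all genes) and 1 lower (2.2%). The median log2 difference of the list was 0.93, against -0.01 for all genes.

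The promoters of Chil3 and Retnla are shown because the genes reached their high levels in the same ECM-treated libraries and because STAT6, the factor downstream of interleukin-4, prefers the letters TTCNNNNGAA, while most other STAT factors prefer TTCNNNGAA. The 250 bases before each gene's start were taken from the RefSeq promoter table and placed on GRCm39 by exact match, at chr3:106074881-106075130 (minus strand) for Chil3 and chr16:48662722-48662971 (plus strand) for Retnla. They are written on the strand of the gene with the matches in capitals.
Chil3: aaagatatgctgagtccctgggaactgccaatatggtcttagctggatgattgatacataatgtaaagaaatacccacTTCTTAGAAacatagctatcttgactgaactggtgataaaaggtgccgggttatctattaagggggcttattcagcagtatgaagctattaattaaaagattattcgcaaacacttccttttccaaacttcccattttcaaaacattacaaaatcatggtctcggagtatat
Retnla: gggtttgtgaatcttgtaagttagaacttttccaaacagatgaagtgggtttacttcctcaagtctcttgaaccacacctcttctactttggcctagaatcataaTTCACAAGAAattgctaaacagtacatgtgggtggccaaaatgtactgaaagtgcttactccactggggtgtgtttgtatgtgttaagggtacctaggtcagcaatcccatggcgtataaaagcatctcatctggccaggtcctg
Chil3 holds 1 match to TTCNNNGAA, from 172 to 164 bases before the start, and Retnla holds 1 match to TTCNNNNGAA, from 145 to 136 bases before the start. Both motifs are their own reverse complements, so a match stands on both strands. Of 32851 promoters of the same length, 7.02% hold TTCNNNGAA and 5.85% hold TTCNNNNGAA, so such matches are found in many genes, and they describe the sequence only.

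The smallest adjusted p was that of Rnase2a (chr14:51492719-51493595, minus strand), a ribonuclease of the eosinophil-associated family that macrophages also make. It was at 37.7, 6.8 and 6.88 CPM after ECM and at 0 in all 3 uninjured libraries, so against a floor of 3 counts per library (0.119 CPM) its mean was at least 144-fold higher, with an adjusted p of 5.33e-06. Ear2, another ribonuclease of this family, was at 5.57, 2.63 and 6.6 CPM against 0.708, 0.719 and 0.542 CPM and rose by 2.68 ± 0.52 (adjusted p = 0.0324). Transcripts of Ear10 are 97.0% identical to Ear2 where they align. Ear1, Ear-ps2 and Ear-ps9 are near-identical too, so reads may be split between copies. Only 2 of 11 eosinophil markers were measured, Ear2 and Siglecf, the surface lectin that defines mouse eosinophils. Siglecf was at 0.594, 0.0404 and 0.354 CPM after ECM, 1 of them under the floor, and at 0 in the uninjured libraries. How many eosinophils the muscle held was therefore not tested with these RNA values. By flow cytometry, the study reports more eosinophils after ECM than after the saline or polyethylene injury in B6 and in MRL mice.

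Chemokines formed the next group. Ccl8, which draws monocytes and eosinophils, was at 127, 19.5 and 47.4 CPM after ECM and at 0.536, 0.42 and 0.404 CPM in uninjured muscle, a rise of 6.53 ± 0.92 (adjusted p = 0.00227). Ccl7, which draws monocytes through the receptor CCR2, was at 28.1, 2.76 and 6.93 CPM against 0.575, 0.675 and 0.407 CPM and rose by 3.73 ± 0.76 (adjusted p = 0.0385). In both genes ECM-treated replicate 1 was highest and replicate 2 lowest, and the groups were apart. Of 29 chemokines and chemokine receptors, 2 rose (0.198% of all genes) and 0 fell. The fit of 6 libraries called 9 higher (4.1% of all genes) and 1 lower (2.2%), and the median was 1.38. These genes had a median of 0.70 for saline minus uninjured and 0.27 for ECM minus saline. Cxcl16, a membrane-bound ligand made by macrophages, was at 20.8, 8.85 and 17.5 CPM against 1.86 to 2.47 CPM (adjusted p = 0.0649, 0.0161 in the fit of 6 libraries). Ccl11, the eosinophil chemokine eotaxin, was the one member called lower by the fit of 6 libraries, at 6.13, 6.69 and 6.05 CPM against 11.2, 12.2 and 15.9 CPM (adjusted p = 0.0967 with 24 libraries).

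Other genes rose with them, among them genes of myeloid cells. Ch25h, which makes 25-hydroxycholesterol, a sterol that guides immune cells, was at 30.2, 2.15 and 3.53 CPM against 0.132, 0.042 and 0.0449 CPM and rose by 5.41 ± 0.82 (adjusted p = 0.00438; 2.83 on the log2(CPM + 1) scale). Cd72, an inhibitory receptor of B cells and macrophages, was at 17.9, 5.28 and 14.5 CPM against 0.729, 0.7 and 0.906 CPM and rose by 3.71 ± 0.80 (adjusted p = 0.0458). Both genes kept the 2 groups apart, and for Ch25h the height of the ECM-treated mean came mostly from replicate 1. Ms4a7, a membrane protein of macrophages, was at 14.2, 5.21 and 18 CPM against 1.32, 0.782 and 0.842 CPM and rose by 3.42 ± 0.72 (adjusted p = 0.0438). Itgad, the integrin chain CD11d, was at 1.27, 1.58 and 2.11 CPM against 0.129, 0.148 and 0.131 CPM and rose by 2.98 ± 0.65 (adjusted p = 0.047), although its exons overlap Cox6a2, an abundant muscle gene on the other strand. Fcrlb, an Fc receptor-like protein, was at 10.2, 0.574 and 1.58 CPM against 0, 0.042 and 0.0899 CPM (adjusted p = 0.0438), and on the log2(CPM + 1) scale its adjusted p was 0.0856.

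Macrophage markers as a list were higher without any single member passing the test. Their summed level was 1030, 382 and 937 CPM after ECM against 210, 201 and 257 CPM without injury and 489, 396 and 442 CPM after saline. The ECM-treated mean was 3.52 times the uninjured one, all 3 ECM-treated sums lay above all uninjured sums (exact permutation p = 0.1, the smallest that 3 against 3 can give), and ECM-treated replicate 2 lay below all saline-treated sums. In bulk muscle, more macrophages and more RNA per macrophage cannot be told apart. Of 20 markers, 0 were called with 24 libraries (the smallest adjusted p, 0.089, was that of Trem2), the fit of 6 libraries called 10 higher and 0 lower, 15 did not overlap in the higher direction (17.7% of all genes), and the median was 1.75. Trem2, a lipid receptor of macrophages at damaged tissue, was at 63, 11.6 and 41.5 CPM against 0.839, 0.85 and 1.22 CPM. Itgax, the integrin chain CD11c of dendritic cells and some macrophages, was at 63.3, 16.4 and 47 CPM against 1.99, 1.3 and 2.77 CPM (adjusted p = 0.21, 0.0161 in the fit of 6 libraries). Both genes had the order of Chil3 among the ECM-treated libraries, with replicate 1 highest and replicate 2 lowest. C1qa and C1qb, which start the complement cascade, were at 42.7 to 104 and 25.9 to 70.8 CPM against 16.5 to 22.4 and 12.2 to 15.5 CPM, with adjusted p-values of 0.107 and 0.109.

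Some genes of digestion and antigen presentation had large differences that the fit of 24 libraries did not call. The cathepsin Ctss, which cuts the invariant chain of MHC class II, was at 232, 65.9 and 177 CPM against 7.39, 7.73 and 11.3 CPM (log2 difference 4.0 ± 1.11, adjusted p = 0.11, 0.014 in the fit of 6 libraries). Legumain, Lgmn, another lysosomal protease, was at 194, 106 and 148 CPM against 36.1, 32.2 and 35.6 CPM (adjusted p = 0.139 and 0.0119). Gpnmb, a glycoprotein of phagocytes loaded with lipid, was at 95.5, 56.4 and 107 CPM against 2.64, 2.29 and 11.8 CPM (adjusted p = 0.181 and 0.0197). None of the 3 genes overlapped between groups. Among 24 lysosomal and phagocytic genes, 0 were called with 24 libraries, 8 were called higher and 0 lower with 6, and the median was 1.05. These genes had a median of 0.40 for saline minus uninjured and 0.70 for ECM minus saline. Their sums of 5296, 3394 and 5089 CPM after ECM and 3192, 4239 and 3390 CPM without injury overlapped. Psap, the most abundant member, had a log2 difference of 0.30 (limma's adjusted p = 0.797). Among 9 MHC class II genes, all 9 had positive log2 differences (49.5% of all genes) with a median of 1.91, 0 were called with 24 libraries and 5 were called higher with 6. Their median was 1.25 for saline minus uninjured and 0.74 for ECM minus saline. Cd74, the invariant chain, was at 277, 147 and 302 CPM against 49.8, 58.2 and 46.8 CPM (log2 difference 2.17 ± 0.51, adjusted p = 0.0649). H2-Ab1, the beta chain of the class II molecule, was at 157, 85.4 and 190 CPM against 25, 33.6 and 21.4 CPM (2.38 ± 0.54, adjusted p = 0.0565).

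**Figure D2:**
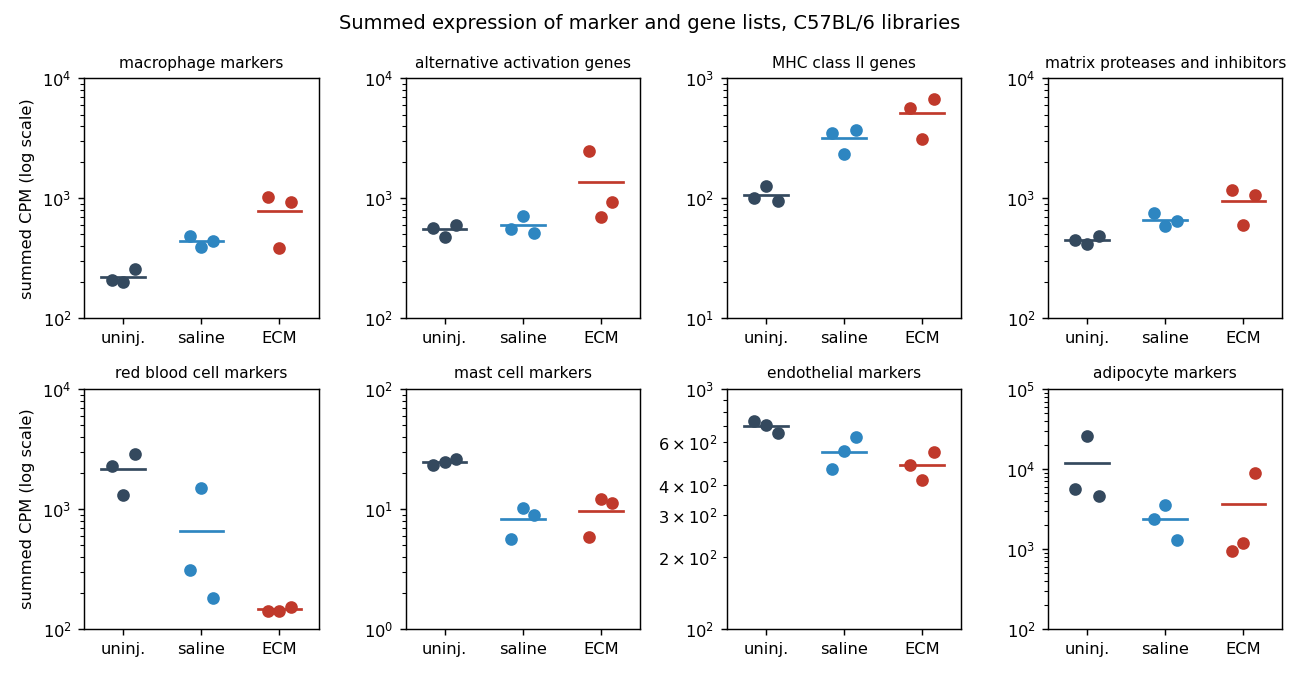
Summed CPM (log scale) of 8 gene lists in uninjured, saline-treated and ECM-treated B6 muscle, 1 point per library with a line at the mean. The macrophage, MHC class II and protease sums are higher in all ECM-treated than in all uninjured muscles, the red blood cell and mast cell sums are lower, and the adipocyte sums overlap.

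Lymphocyte and neutrophil markers gave 0 calls with 24 libraries. Of 11 T cell markers 0 were called with 24 libraries and 2 (Il7r and Zap70) were higher with 6, with sums of 22 to 29 CPM after ECM and 8.8 to 14.0 CPM without injury. The 7 measured B cell and plasma cell markers had a median of 1.19 and 1 call with 6 libraries (Blnk), and their sums of 144, 159 and 157 CPM after ECM lay above 90.6, 132 and 111 CPM without injury, with 134, 95.5 and 129 CPM after saline. The joining chain Igj, which plasma cells add to secreted antibodies, was at 1.3, 26.1 and 1.49 CPM against 0.471 to 0.678 CPM, high in ECM-treated replicate 2 alone (adjusted p = 0.188). Of 9 neutrophil markers 0 were called by either fit, and their sums of 26.4 to 39 and 24.5 to 33.2 CPM overlapped.

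A pair of mast cell proteases fell. Cpa3, the carboxypeptidase of mast cell granules, was at 0.34, 0.572 and 1.03 CPM after ECM and at 4.02, 2.47 and 4.96 CPM without injury, a fall of -2.48 ± 0.50 on the log2 scale (adjusted p = 0.0366). Mcpt4, the chymase of connective tissue mast cells, was at 1.03, 1.58 and 1.38 CPM against 9.25, 2.99 and 10.9 CPM and fell as well (-2.29 ± 0.48, adjusted p = 0.0438). In both genes every ECM-treated library lay below every uninjured one. They were the 2 of 7 mast cell markers that fell (0.226% of all genes), 0 rose, and 1 had a positive difference. Another protease, Cma1, was at 0.386, 0.669 and 0.869 CPM against 4.67, 2.27 and 4.85 CPM (adjusted p = 0.275, 0.0298 with 6 libraries). After saline Cpa3 was at 0.796, 1.59 and 0.788 CPM, and a difference between ECM and saline was not shown (log2 difference -0.69 ± 0.50, limma's unadjusted p = 0.18).

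Red blood cell genes showed the largest falls. The beta-globin Hbb-bs was at 52.3, 52.8 and 57.9 CPM after ECM and at 864, 483 and 1071 CPM without injury (log2 fold change -3.81 ± 0.76, adjusted p = 0.0346). Hba-a1 was at 31.4, 32.7 and 30.5 CPM against 509, 313 and 694 CPM, and the anion exchanger Slc4a1, the most abundant protein of the red cell membrane, was at 0.0392, 0.0442 and 0.147 CPM against 1.05, 3.65 and 2.56 CPM (-3.92 ± 0.80 with an adjusted p of 0.0385, and -3.90 ± 0.73, or -1.59 on the log2(CPM + 1) scale, with an adjusted p of 0.0297). The ECM-treated libraries lay far below the uninjured ones in each gene, and close together in Hbb-bs and Hba-a1. For Slc4a1, ECM-treated replicates 1 and 2 were under the floor of 3 counts (0.119 CPM). Of 6 markers 5 fell (0.226% of all genes), with a median of -3.86. The sixth, the haem synthesis enzyme Alas2, was at 2.25, 1.78 and 2.78 CPM against 28, 16.1 and 34.7 CPM (adjusted p = 0.0655). Transcripts of Hba-a1 and Hba-a2, and of Hbb-bs and Hbb-bt, are identical over most of their length, so the copies are not independent. The summed red cell level was 140, 142 and 154 CPM after ECM, 2268, 1316 and 2905 CPM without injury, and 309, 1493 and 180 CPM after saline. Blood left in the muscle at collection was not measured, and its part in these values was not tested.

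Some vessel and stromal genes were lower by smaller amounts. Tek, the angiopoietin receptor TIE2 of endothelial cells, was at 18.6, 14.6 and 21.6 CPM after ECM and at 40.9, 37.7 and 42.5 CPM without injury and fell by 1.16 ± 0.24 on the log2 scale (adjusted p = 0.0444). It was the 1 endothelial marker of 15 that was called, while the fit of 6 libraries called 4 lower (Eng, Cdh5, Kdr and Tek) and 0 higher, and the median was -0.54. Jam2, a junction protein of vessels, was at 27, 23.2 and 25.1 CPM against 54, 44.1 and 52.3 CPM (-0.99 ± 0.20, adjusted p = 0.0385). Scara5, a ferritin receptor of fibro-adipogenic progenitors, was at 13.8, 13.2 and 11.3 CPM against 39.5, 30.8 and 41.1 CPM and fell by 1.52 ± 0.27 (adjusted p = 0.0297). The groups were well apart in all 3 genes. Gpc3, a surface proteoglycan, and Tnxb, the matrix glycoprotein tenascin X, fell by 1.56 ± 0.31 and 1.80 ± 0.39 (adjusted p = 0.0324 and 0.0458). Of 18 fibroblast and progenitor markers 0 were called with 24 libraries and 3 were called lower with 6 (Pdgfra, Dpp4 and Pi16). Their median was -0.38, with 13 negative and 5 positive differences. Their sums of 1253, 1055 and 2044 CPM after ECM and 2136, 2007 and 2452 CPM without injury overlapped. Pi16, which marks a fibroblast reserve in the adventitia, was at 17.5, 23 and 16.2 CPM against 66.8, 52.7 and 85.7 CPM (-1.84 ± 0.44, adjusted p = 0.0655). Smooth muscle and pericyte markers had a median of -0.77, with 0 of 13 called with 24 libraries and 3 called lower with 6. For saline minus uninjured the medians were -0.33 for endothelial, 0.33 for fibroblast and progenitor, and -0.50 for smooth muscle and pericyte markers.

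The developmental muscle genes were high in every ECM-treated library but did not pass the test with 24 libraries. Myh8, the neonatal myosin heavy chain, was at 81.9, 217 and 210 CPM after ECM and at 7.56, 6.63 and 9.58 CPM without injury (log2 difference 4.29 ± 1.23, adjusted p = 0.12, 0.0085 in the fit of 6 libraries). Myog, the transcription factor that starts fusion and differentiation of muscle precursors, was at 27.1, 58.8 and 56.4 CPM against 5.18, 4.16 and 7.94 CPM (2.99 ± 0.85, adjusted p = 0.116 and 0.0157). Here ECM-treated replicate 1, the highest in Chil3 and Arg1, was the lowest of the 3, and no library overlapped an uninjured one. Myh3, the embryonic myosin, was at 18.7, 86.8 and 58.7 CPM against 7.94, 1.66 and 3.61 CPM, and Tmem8c, the fusion protein myomaker, at 5.12, 14.7 and 12 CPM against 1.32, 0.335 and 0.321 CPM (adjusted p = 0.176 and 0.149, 0.0374 and 0.023 with 6 libraries). Of 19 myogenic and developmental genes 0 were called with 24 libraries, 8 were called higher (4.1% of all genes) and 0 lower with 6, 11 did not overlap in the higher direction (17.7% of all genes) and 1 in the lower, and the median was 1.32. The differences were positive in 17 and negative in 2, one of them Pax7, the factor of muscle stem cells, at 2.03, 3.2 and 1.1 CPM against 4.39, 3.46 and 5.03 CPM (adjusted p = 0.14). The saline-treated injury had a median of 1.43 against uninjured muscle in the same genes, and ECM minus saline one of -0.01.

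Acetylcholine receptor subunits were ordered as the developmental genes were. Chrng, the gamma subunit of the fetal receptor, was at 5.86, 19.7 and 16.9 CPM after ECM and at 0.875, 0.35 and 0.273 CPM without injury (log2 difference 4.58 ± 1.33, adjusted p = 0.124, 0.0161 with 6 libraries). Chrna1, the subunit that binds acetylcholine, was at 36.4, 82.7 and 76.1 CPM against 15.4, 2.81 and 7.96 CPM (3.11 ± 0.87, adjusted p = 0.114 and 0.0385). Runx1, a transcription factor induced when muscle loses its nerve, was at 17.1, 28.5 and 32.4 CPM against 2.43, 2.7 and 2.89 CPM (3.20 ± 1.00, adjusted p = 0.14 and 0.00645). As with Myh8, replicate 1 was the lowest ECM-treated library, and all 3 lay above the uninjured ones. All 17 receptor and denervation genes had positive log2 differences, with a median of 1.63, 0 calls with 24 libraries and 6 higher and 0 lower with 6. The median was 1.81 for saline minus uninjured and -0.25 for ECM minus saline. Sln, sarcolipin, an inhibitor of the calcium pump, was at 95.6, 325 and 302 CPM against 7.04, 4.71 and 5.84 CPM (adjusted p = 0.124 and 0.0085).

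The promoters of the receptor subunits Chrna1 and Chrng are shown because myogenin and its relatives bind CAGCTG, one form of the E-box, and because both genes and Myog were lowest in the same ECM-treated library. The 250 bases before the start, from the same RefSeq table, lie on GRCm39 at chr2:73410683-73410932 (minus strand) for Chrna1 and chr1:87133283-87133532 (plus strand) for Chrng, with the matches in capitals on the strand of the gene.
Chrna1: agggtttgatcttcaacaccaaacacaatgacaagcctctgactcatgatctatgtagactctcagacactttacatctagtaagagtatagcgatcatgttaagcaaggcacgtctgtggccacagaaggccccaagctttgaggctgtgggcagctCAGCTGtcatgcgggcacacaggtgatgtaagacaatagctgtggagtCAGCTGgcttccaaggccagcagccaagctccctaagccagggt
Chrng: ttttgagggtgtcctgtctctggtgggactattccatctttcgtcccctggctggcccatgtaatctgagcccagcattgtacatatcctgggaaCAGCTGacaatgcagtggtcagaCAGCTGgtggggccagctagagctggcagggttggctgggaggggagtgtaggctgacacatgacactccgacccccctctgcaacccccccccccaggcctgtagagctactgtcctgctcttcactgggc
Chrna1 holds 2 matches, from 92 to 87 and from 44 to 39 bases before the start, and Chrng holds 2, from 155 to 150 and from 132 to 127. The motif is its own reverse complement, the matches do not overlap, and 13% of the 32851 promoters hold at least 1.

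**Figure D3:**
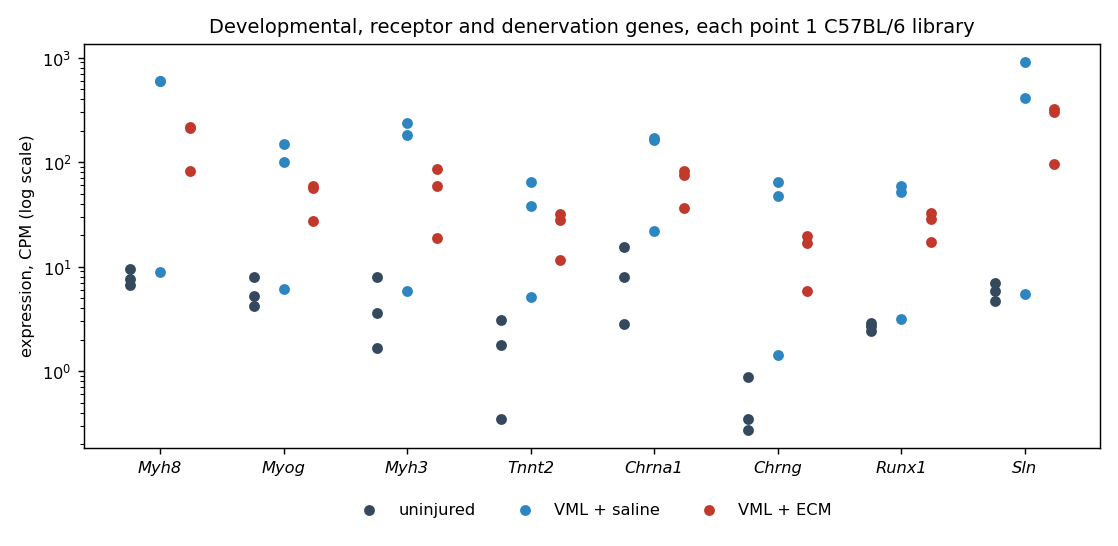
Expression (CPM, log scale) of 8 developmental, receptor and denervation genes in uninjured, saline-treated and ECM-treated B6 muscle, 1 point per library. All ECM-treated points lie above all uninjured points in each gene, and 1 saline-treated library, replicate 2, lies near the uninjured ones in Myh8, Runx1 and Sln.

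Genes of adult contraction differed little. Of 25 fast and slow contractile genes 0 were called by either fit, and the median was -0.22. The groups were apart in 1 gene higher (17.7% of all genes) and 1 lower (14.6% of all genes). Mstn, myostatin, which limits muscle growth, was at 37.8, 35.1 and 16.9 CPM against 60.2, 71.3 and 89.6 CPM (log2 difference -1.37 ± 0.51, adjusted p = 0.199).

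Matrix genes were higher in their values, and their list medians were positive. Col1a1, the main chain of type I collagen, was at 977, 770 and 1153 CPM after ECM and at 303, 279 and 427 CPM without injury (log2 difference 1.53 ± 0.73, adjusted p = 0.301, 0.0197 with 6 libraries). Col3a1 was at 885, 768 and 1393 CPM against 491, 386 and 534 CPM (adjusted p = 0.39). Col19a1, a minor collagen made in differentiating muscle, was at 3.1, 9.03 and 7.05 CPM against 0.405, 0.518 and 0.392 CPM (3.52 ± 0.96, adjusted p = 0.105 and 0.0161). Of the 3 genes, Col19a1 had the order of the developmental muscle genes, with replicate 1 lowest, and Col1a1 and Col3a1 did not. Of 24 collagen chains 0 were called with 24 libraries, 10 were called higher and 0 lower with 6, and the median was 1.02. In the fit without saline-treated B6 replicate 2 and polyethylene-treated MRL replicate 2, 5 were called higher and 0 lower. The summed collagens were 4020, 3471 and 5397 CPM after ECM, 2557, 2265 and 2965 CPM without injury, and 5686, 2706 and 6100 CPM after saline, where replicates 1 and 3 lay above all ECM-treated libraries. Postn, periostin, a matrix protein of activated fibroblasts, was at 222, 177 and 312 CPM against 36.8, 60.5 and 41 CPM (2.36 ± 0.75, adjusted p = 0.148 and 0.013).

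Proteases that cut matrix had larger differences than the collagens, again without a call with 24 libraries. Mmp13, a collagenase, was at 48.7, 10.4 and 61.8 CPM after ECM and at 0.307, 0.294 and 0.0447 CPM without injury (log2 difference 6.92 ± 1.55, adjusted p = 0.0546, 0.013 with 6 libraries). Mmp12, the macrophage elastase, was at 189, 71.3 and 147 CPM against 0.586, 0.89 and 13.7 CPM (5.92 ± 1.96, adjusted p = 0.156 and 0.0334). Timp1, an inhibitor of these enzymes, was at 21.6, 5.78 and 6.3 CPM against 0.953, 0.529 and 1.12 CPM (3.35 ± 1.01, adjusted p = 0.134 and 0.0265). Replicate 2 was the lowest ECM-treated library in all 3, as in the macrophage genes. Of 20 proteases and inhibitors 0 were called with 24 libraries, 7 were called higher and 0 lower with 6, and the median was 0.88. Their median was 0.57 for saline minus uninjured and 0.77 for ECM minus saline.

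Genes of fat burning were lower throughout. All 25 measured fatty acid oxidation genes had negative log2 differences with a median of -1.24, and in 19 of 25 every ECM-treated library lay below every uninjured one, as was so for 14.6% of all genes. Among them 0 were called with 24 libraries and 8 were called lower with 6. The median was also -1.24 for saline minus uninjured, and near 0 for ECM minus saline. Cpt1b, the enzyme that admits fatty acids to muscle mitochondria, was at 196, 212 and 169 CPM against 326, 365 and 419 CPM (-0.94 ± 0.43, adjusted p = 0.281 and 0.0222). Hadha, a subunit of the trifunctional enzyme that shortens fatty acids, was at 275, 334 and 338 CPM against 621, 829 and 620 CPM (-1.12 ± 0.39, adjusted p = 0.17 and 0.0203). Plin5, which ties lipid droplets to mitochondria, was at 7.59, 7.57 and 6.52 CPM against 17.9, 42.2 and 53.5 CPM (-2.24 ± 0.80, adjusted p = 0.185 and 0.0296). All 3 genes kept the groups apart. Of 92 oxidative phosphorylation subunits 81 had negative differences, the median was -0.26, 0 were called with 24 libraries and 1 was called lower with 6.

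Adipocyte genes did not separate the groups. Adipoq, the hormone adiponectin, was at 12.6, 18.9 and 249 CPM after ECM and at 119, 434 and 158 CPM without injury, and Fabp4, the fatty acid carrier of adipocytes, was at 120, 196 and 936 CPM against 396, 1915 and 719 CPM (adjusted p = 0.306 and 0.352). ECM-treated replicate 3 reached the uninjured range in both genes while replicates 1 and 2 did not. All 20 adipocyte markers had negative differences, with a median of -1.98 and 0 called by either fit, and their sums of 941, 1189 and 8948 CPM against 5637, 25768 and 4587 CPM overlapped. How much fat was dissected with each muscle was not measured, and its part in the fatty acid oxidation values was not tested.

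The other lists gave 0 calls with 24 libraries. The fit of 6 libraries called 4.1% of all genes higher and 2.2% lower, so a single call in a list says little. With 6 libraries, 8 of 31 matrix glycoproteins and crosslinkers (Thbs4, Lox and Cthrc1 among them) were called higher and 1 lower, and 4 of 12 tendon and cartilage markers were called higher. In the fit without saline-treated B6 replicate 2 and polyethylene-treated MRL replicate 2, 1 of the 31 was called higher and 1 lower. That fit called 1 of the 12 higher. Tnc, tenascin C, was at 39, 36.6 and 39.2 CPM against 8.17, 9.37 and 13.1 CPM (adjusted p = 0.338 and 0.0103). Of 19 complement genes 5 were called higher and 1 lower with 6 libraries, and the median was -0.14. The lower one, C7, a late component of the cascade, was at 0.554, 0.192 and 0.279 CPM against 3.16, 1.72 and 4.34 CPM (-2.90 ± 0.66, adjusted p = 0.0565). Of 22 interferon-induced genes 1 was called higher, of 18 inflammatory cytokine and interleukin-1 genes 1, of 9 type 2 cytokine genes and receptors 0 higher and 1 lower, of 16 muscle atrophy genes 3 higher and 1 lower, of 17 calcium handling genes 1 higher, of 22 glycolysis and glycogen genes 1 lower, of 23 TGF-beta and activin genes 2 higher and 1 lower, and of 21 proliferation genes and 8 HGF and plasminogen activator genes 0. Among lists that bear on sampling, 1 of 16 clock genes was called in each direction, 1 of 16 immediate-early genes and 1 of 9 skin and mammary markers were called higher, and 0 of 11 Schwann cell markers were called.

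**Figure D4:**
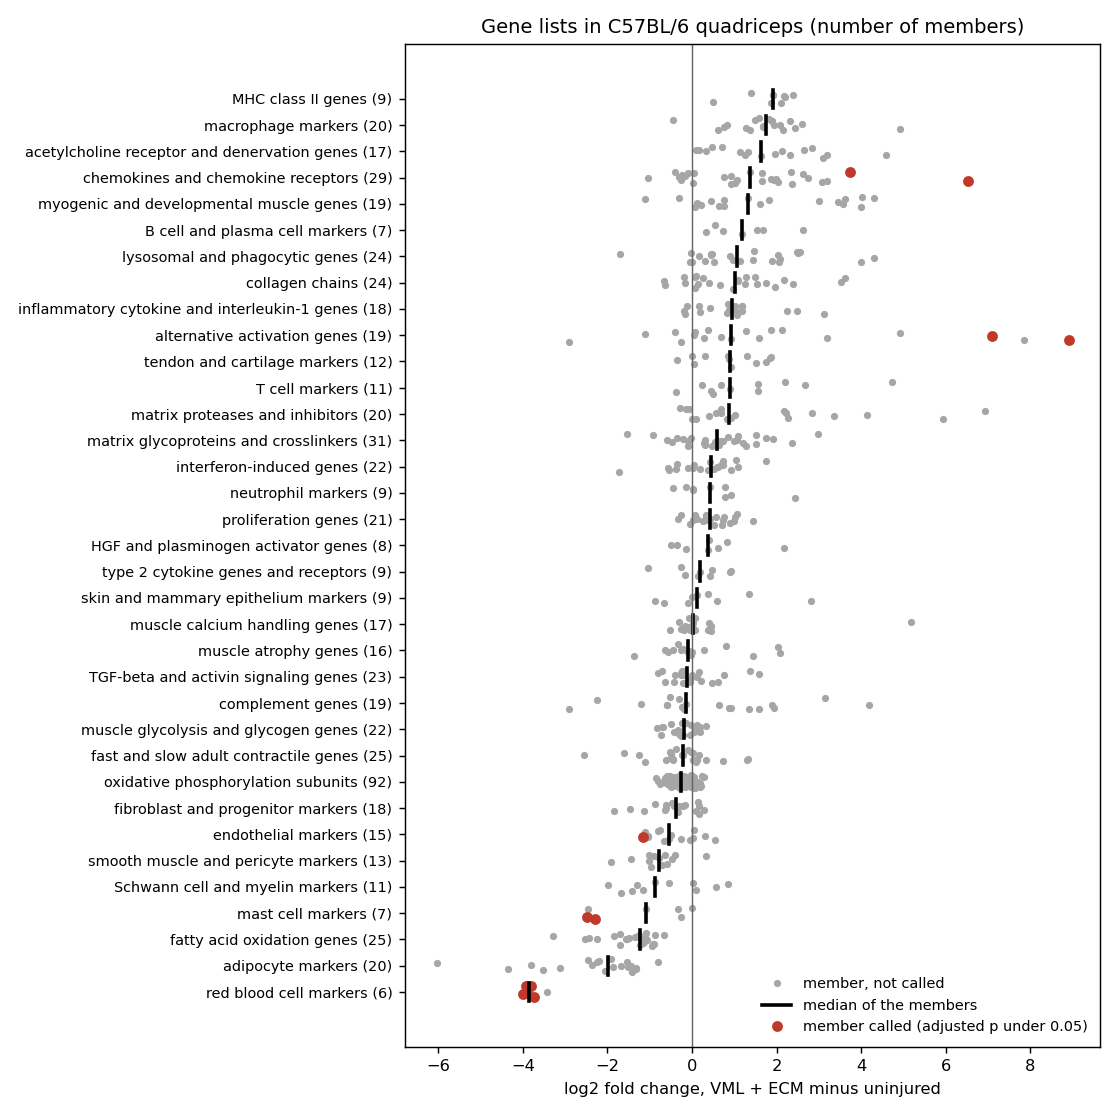
Log2 fold change (ECM-treated minus uninjured, horizontal axis) of each member of the gene lists with at least 5 measured members, in order of the list median (black bar); red points passed the test with 24 libraries and grey points did not. The medians run from 1.91 for MHC class II genes to -3.86 for red blood cell markers.

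Among genes outside these lists, the remaining large rises were in genes of uncertain reading. Slc37a4, the glucose-6-phosphate transporter, was at 22.7, 12.2 and 14.2 CPM after ECM and at 0, 3.38 and 0 CPM without injury (adjusted p = 0.0297, and 0.0608 in the fit of 6 libraries), and its exons overlap Trappc4. Mup7 and Mup15, major urinary proteins, were at 3.62 to 6.17 and 1.59 to 4.3 CPM against at most 0.123 and 0.185 CPM (adjusted p = 0.0324 and 0.0318), each with 15 other near-identical genes. Mrgprg, a receptor of the Mas-related family, was at 3.24, 4.26 and 0.87 CPM against 0.0439, 0.252 and 0.0448 CPM (3.80 ± 0.74, or 1.64 on the log2(CPM + 1) scale, adjusted p = 0.0324). Splicing and signalling genes rose by less, with Snrnp70, the 70K protein of the U1 particle, at 84.1, 80.8 and 99.6 CPM against 42.3, 45.6 and 40.5 CPM and the kinase Wnk1 at 378 to 414 CPM against 255, 199.6 and 277 CPM (1.04 ± 0.22 and 0.71 ± 0.15, adjusted p = 0.0458 and 0.045).

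Other genes among the 32 that fell were chosen after their values were seen or by their size. Abca6, a lipid transporter, was at 1.73, 1.63 and 1.55 CPM after ECM and at 10.8, 8.15 and 7 CPM without injury (-2.33 ± 0.32, adjusted p = 0.00177), and its neighbour in the family Abca8b fell by 1.07 ± 0.22 (adjusted p = 0.0385). Pcsk6, a protease that activates growth factor precursors, was at 11.5, 9.84 and 24.2 CPM against 56, 69.4 and 52.3 CPM (-2.06 ± 0.39, adjusted p = 0.0297). Ntn1, the guidance protein netrin 1, was at 9.71, 7.28 and 7.82 CPM against 32.1, 22.2 and 22.3 CPM (-1.61 ± 0.28, adjusted p = 0.0242). None of these libraries overlapped. Ret, the receptor of glial-derived growth factors, and the flavin monooxygenases Fmo2 and Fmo5 fell by 1.44 ± 0.27, 1.64 ± 0.35 and 0.97 ± 0.19 (adjusted p = 0.0297, 0.0438 and 0.0324). Vcp-rs, at 0.622, 0.844 and 1.81 CPM against 5.26, 5.39 and 4.55 CPM, is identical to Vcp over most of its transcript, so its fall of -2.26 ± 0.33 (adjusted p = 0.00272) is uncertain.

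The ECM-treated muscle was also compared directly with the saline-treated injury of the same strain, which shares the ECM-treated libraries with the comparison above. Here 4 of 14159 genes were called (0.0283%, with 565 or 3.99% at an unadjusted p under 0.05), all higher after ECM: Chil3, Arg1, Rnase2a and Mrgprg. Chil3 was at 0.874, 1.36 and 1.1 CPM and Arg1 at 1.6, 2.07 and 2.5 CPM after saline, below all ECM-treated libraries, and they were higher after ECM by 6.17 ± 0.91 and 5.45 ± 0.83 (adjusted p = 0.012 and 0.0133). Rnase2a, at 0.0378, 0.0401 and 0.0894 CPM after saline, was under the floor of 3 counts there and above it in every ECM-treated library (adjusted p = 3.24e-05). Mrgprg was at 0, 0.04 and 0.0439 CPM after saline, also under the floor (adjusted p = 0.0277). With 1 of these 6 libraries left out, Rnase2a was called in 6 of 6 fits, Chil3 and Arg1 in 3 of 6 and Mrgprg in 2 of 6, and the fit of the 6 libraries alone called 0 genes (576 at an unadjusted p under 0.05). Saline-treated replicate 2 differed from the other saline-treated libraries in the muscle genes, with Myh8 at 603, 8.88 and 595 CPM and Sln at 409, 5.49 and 901 CPM, near uninjured muscle. Without it the count of genes that differed from ECM was 1, Rnase2a, as it was without ECM-treated or saline-treated replicate 1, and without saline-treated replicate 3, which does not share the first index of the ECM-treated libraries, it was 14. The saline-treated and uninjured groups differed in 0 genes by limma, with 1751 (12.4%) at an unadjusted p under 0.05. Ccl8, at 2.8, 3.9 and 2.67 CPM after saline, did not pass against ECM (3.96 ± 0.92, adjusted p = 0.433).

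In MRL mice the same treatment gave 2 called genes (0.0141%, with 538 or 3.8% at an unadjusted p under 0.05), Mrgprg (5.0 ± 0.74, adjusted p = 0.0278) and Rnase2a (3.80 ± 0.62, adjusted p = 0.0486), both higher after ECM. Chil3 was at 0, 0.0445 and 0.255 CPM after ECM and at 0.0749, 0.0317 and 0.076 CPM without injury in MRL muscle, where only 1 of the 6 libraries was above the floor. The difference between the strains' responses was 8.81 on the log2 scale, with an adjusted p of 0.0214, and Chil3 was the 1 gene called in that test (0.00706%, with 512 or 3.62% at an unadjusted p under 0.05). Arg1 was at 2.39, 2.3 and 2.68 CPM in ECM-treated and 1.81, 0.0764 and 0.275 CPM in uninjured MRL muscle, a difference of 2.43 ± 0.83, and the strains' responses of Arg1 differed by 4.66 with an adjusted p of 0.804. For Ccl8, at 3.27, 8.82 and 24.7 CPM against 0.627, 1.66 and 0.753 CPM in MRL muscle, the difference between strains did not pass the test either. All ECM-treated MRL libraries share a first sequencing index that no uninjured MRL library carries. Index and treatment therefore cannot be told apart in MRL mice either, and the test between strains carries this limit.

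**Figure D5:**
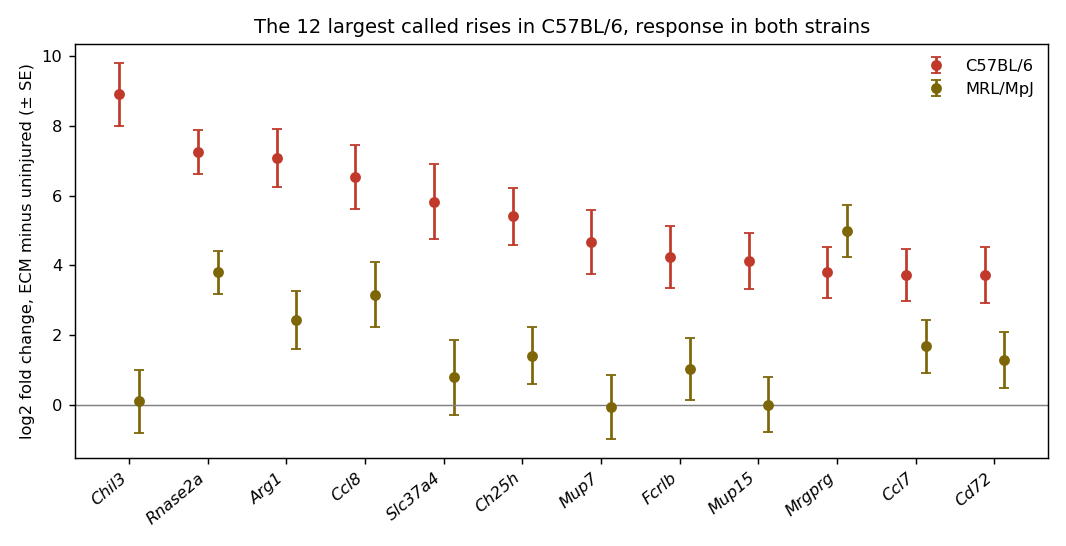
Log2 fold change (ECM-treated minus uninjured, vertical axis, with bars of 1 SE) of the 12 genes with the largest called rises in B6 muscle, in B6 and in MRL mice, 3 libraries per group. Predicted genes and genes with a mean log2 CPM under 1 after ECM were left out before these 12 were taken. B6 values were the criterion for showing the genes; Chil3 is at 8.91 in B6 and 0.10 in MRL mice, and Mrgprg is at 3.80 and 5.0.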

How the data were processed

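Bulk RNA of whole quadriceps was sequenced in paired-end poly-A libraries. The authors pseudoaligned reads with kallisto to the Ensembl transcriptome of GRCm39, summed estimated counts to genes, kept genes above 1 CPM in at least 3 libraries, normalized with TMM and deposited log2 CPM values, which carry a prior count of 2. The lowest value, -3.65, marks a count of 0 and implies a mean effective library size of 25149682 reads. Whole reads were not recovered from the values, so no count model was used, the read numbers that the study lists per library were not used here, and 3 counts correspond to 0.119 CPM on average. The unnamed part of the table held at most 0.0254% of CPM and was left out.

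Groups came from the labels. The deposited log2 CPM were fitted with limma 3.58.1 in R 4.3.3 (1 coefficient per group over 24 libraries, variance trend, 2-sided, Benjamini-Hochberg over 14159 genes). Voom weights, which the study's own model used, need counts. Sums over lists were compared with exact permutation tests. On simulated data with 200 of 14159 genes changed, 90% were recovered at a log2 change of 3 and 48% at 1.5, with 2 false calls, and 1 gene was called without any change; with 6 libraries alone the shares were 63% and 21%, with 3 and 0 false calls. The simulation drew normal noise with the same spread of a gene in all groups and without outlying libraries, so its rates need not hold here. Annotation was GENCODE M39, and near-identical copies were sought with BLAST+ 2.17.0 (at least 95% identity over 200 bases and 50% of the shorter transcript).

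Genes were named if they were among the 12 largest called rises or falls, the largest called or most abundant of a list, or named by the study. The choice of the 12 left out predicted genes, clones, pseudogenes and genes whose groups overlapped. It also left out genes with a mean log2 CPM under 1 in the higher group. Trem2, Ctss, Gpnmb, Lgmn, H2-Ab1, Ms4a7, Itgad, Cxcl16, Ccl11, Igj, Cma1, Alas2, Siglecf, Jam2, Scara5, Gpc3, Tnxb, Pi16, Myog, Myh3, Tmem8c, Chrng, Chrna1, Runx1, Sln, Postn, Tnc, Mmp13, Mmp12, Timp1, Cpt1b, C7, Snrnp70, Wnk1, Abca8b, Ntn1, Ret, Fmo2 and Fmo5 were chosen after their values were seen. Members and lists were chosen with earlier results of these data known. Same-numbered ECM-treated and uninjured libraries did not deviate together (r of 0.114, -0.277 and -0.231), so the numbers were not treated as pairs. A gene under the rule is not reported here.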

Additional observations from a re-analysis of the deposited data

Results flagged for a closer look

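The response of Chil3 differed between the strains. The B6 change after ECM exceeded the MRL change by 8.81 on the log2 scale, with an adjusted p of 0.0214 in limma's test of the difference itself. All 3 ECM-treated B6 libraries were higher than all uninjured B6 libraries, while the ECM-treated and uninjured MRL libraries overlapped. Over 20 other settings of the fit the difference stayed between 6.25 and 9.83, and it was called in 11 of them, with adjusted p-values from 0.00111 to 0.252. The highest came with the first index as a term, and among the 12 fits that left out 1 library it was called in 5, with an adjusted p of up to 0.102. In both strains the ECM-treated and uninjured libraries carry different first indices.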

How the results depend on the processing

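The 60 genes kept the sign of their fold change in every alternative. Their number was 18 with genes of mean log2 CPM under 1 removed, 32 with equal library totals, 28 with the replicate number as a block, 263 with B6 libraries only, 871 without saline-treated B6 replicate 2 and polyethylene-treated MRL replicate 2, 893 with only the groups compared, 1866 with the first index as a term and 2687 with library weights, whose estimate did not converge. With 1 library left out it ranged from 9 to 20 with 24 libraries and, with only the groups compared, from 52 to 450 (139, 450 and 113 without ECM-treated replicates 1, 2 and 3, and 57, 429 and 52 without the uninjured ones). The fits to B6 libraries only, without those 2 libraries and to the groups compared with 1 library left out were chosen after seeing the data. Between ECM and saline, 4 genes became 1 with genes of mean log2 CPM under 1 removed, 13 with the index, 2227 with weights, 0 with only the groups compared, and 1 to 14 with 1 library left out. Between the strains, 1 gene became 0 with genes of mean log2 CPM under 1 removed, 2 with a constant prior variance or quantile normalization, 10 with the index, 61 with weights, and 0 to 4 with 1 library left out. The replicate numbers share no stated batch or animal, and in the fit with the replicate block 3 genes differed between ECM and saline and 1 between strains. The cause of these differences was not tested. Of the single genes' values, 1956 stayed on the same side of the threshold, 653 lost their call and 327 gained one. Depth limits genes near 0.119 CPM, and 3 libraries per group limit every comparison.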
